A study of Mus musculus with 6 samples.

Results

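Polycomb proteins are the chromatin machinery that keeps developmental genes silent, and 10 genes that encode subunits of it were followed here through 3 subsets of mouse common dendritic cell progenitors (CDPs), the bone marrow precursors of dendritic cells. The 10 genes are Ezh1, Ezh2, Eed, Suz12 and Jarid2 of Polycomb repressive complex 2 (PRC2) and Rnf2, Bmi1, Cbx2, Cbx7 and Cbx8 of Polycomb repressive complex 1 (PRC1). They were taken by gene symbol, whatever their values, from 16135 genes listed in at least 1 of the sample tables. All 10 had reads in each of the 6 libraries, and all 10 passed the filter on low counts that left 12127 genes for testing.

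The subsets were flow-sorted from bone marrow of wildtype C57BL/6 mice aged 6 to 8 weeks, and their polyadenylated RNA was sequenced. They are CD115-Ly6C-, CD115+Ly6C+ and CD115+Ly6C- CDPs, with 2 libraries each, where CD115 is the receptor of the growth factor M-CSF and Ly6C is a surface protein high on monocytes. All 3 share strain, genotype, age and tissue, and the sources used here do not name the other surface proteins of the gates. The labels do not say whether the paired libraries of a subset came from separate mice or sorts, so every p-value measures the spread between these libraries alone, which may be technical.

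PRC2 places methyl groups on lysine 27 of histone H3 (H3K27), a mark of silent developmental genes. Its catalytic subunit is either Ezh2, which is typical of dividing cells, or Ezh1, which is the more frequent form in resting cells. Canonical PRC1 docks on the mark through a Cbx protein, compacts chromatin and, through its RING ligase, ubiquitinates histone H2A. In blood cell formation both complexes are known for holding Hox genes and cell cycle inhibitors in check, and Bmi1 and Ezh2 are known for their roles in stem cell maintenance and lymphoid development.

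Library totals ran between 17961541 and 19450329 expected counts, and the members together held 8459 to 10956 of them. The CDP label was read through 8 marker genes, among them Flt3, Csf1r, Kit and Irf8. All 8 had reads in every subset, and their summed level was 3882 to 4073 CPM (counts scaled to library size) in CD115-Ly6C-, 4026 to 4336 CPM in CD115+Ly6C+ and 3976 to 4493 CPM in CD115+Ly6C-. Within that sum single markers differed in opposite directions. Flt3 averaged 1101 ± 53.6 CPM in CD115-Ly6C- cells, 357.4 ± 21.8 CPM in CD115+Ly6C+ cells and 661.6 ± 6.09 CPM in CD115+Ly6C- cells, while Csf1r, which encodes CD115, averaged 236 ± 32.5 CPM in CD115-Ly6C- cells, 541.9 ± 15.6 CPM in CD115+Ly6C+ cells and 463.1 ± 70.0 CPM in CD115+Ly6C- cells (SD, n = 2 each). In edgeR's test 2 of the 8 (Flt3 and Kit) were higher and 4 lower in CD115-Ly6C- cells than in CD115+Ly6C+ cells. The shares of all genes tested were 20.1% and 19.2% there. Against CD115+Ly6C- cells 2 were higher and 3 lower in CD115-Ly6C- cells, beside 8.43% and 6.78% of all genes. In CD115+Ly6C+ cells 1 was higher and 2 were lower than in CD115+Ly6C- cells, beside 5.26% and 4.34%. Genes of other lineages also differed. The 9 early lymphoid genes summed to 3254 to 3628 CPM in CD115-Ly6C-, 68.7 to 83.0 CPM in CD115+Ly6C+ and 460.1 to 545.9 CPM in CD115+Ly6C-, with Pax5 at 0 in both CD115+ subsets. The 10 neutrophil granule genes, all with reads in every subset, summed to 149.4 to 311.3 CPM in CD115-Ly6C- libraries, 3916 to 4196 CPM in CD115+Ly6C+ libraries and 229.4 to 907.6 CPM in CD115+Ly6C- libraries. The 8 monocyte genes summed to 506.6 to 754.9 CPM in CD115-Ly6C- cells and 5490 to 6037 CPM in CD115+Ly6C+ cells. Their sum was 2246 to 2304 CPM in CD115+Ly6C- cells, with Vcan at 0 there. Among the 8 is Ly6c2, a gene of the sorting marker Ly6C, so its part of the difference was not independent of the gates. Ly6c2 averaged 51.8 CPM in CD115-Ly6C-, 1420 CPM in CD115+Ly6C+ and 154.5 CPM in CD115+Ly6C-. Genes of mature B cells summed to 87.5 to 104 CPM over the libraries. Most of this was Cd79b, with means of 79.3 CPM in CD115-Ly6C-, 95.99 CPM in CD115+Ly6C+ and 87.37 CPM in CD115+Ly6C-. Cd79a averaged 12.47, 1.212 and 0.8742 CPM in the same order. Genes of T and NK cells summed to at most 16.8 CPM, with Cd3e and Cd3g at 0 in CD115-Ly6C- and CD115+Ly6C-. Among them Zap70 averaged 13.81, 1.497 and 5.386 CPM in that order of subsets. In CD115-Ly6C- against CD115+Ly6C+, 1 of 4 B cell genes and 2 of 2 T and NK genes tested were higher. The share of all genes higher was 20.1% there. Klrb1c, 1 of the 2 T and NK genes tested, held only 1 and 5 counts in the CD115+Ly6C+ libraries. It cleared the filter on low counts only through the other subsets, so the direction of that call was fixed in advance. The other T and NK genes read here did not pass the filter. Genes of red cells and platelets summed to at most 13.3 CPM. The part of these other lineages in the results below was not tested, and in sorted bulk cells a lower share of expressing cells and less RNA per cell cannot be told apart.

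The share of all 12127 genes past an adjusted p of 0.05 in edgeR's quasi-likelihood test, with Benjamini-Hochberg adjustment over all of them, sets the background. It was 9.6% in CD115+Ly6C+ against CD115+Ly6C- (5.26% higher and 4.34% lower), where 1 of the 10 members, Jarid2, passed as lower. It was 15.2% in CD115-Ly6C- against CD115+Ly6C- (8.43% higher and 6.78% lower), where 2 of 10, Ezh1 and Cbx2, passed as higher. The share reached 39.3% in CD115-Ly6C- against CD115+Ly6C+, where 7 of 10 passed. By direction, 20.1% of all genes were higher and 19.2% lower in that last comparison, with 5 members higher (Ezh1, Jarid2, Rnf2, Cbx2 and Cbx7) and 2 lower (Ezh2 and Eed). The median log2 fold change of the 10 members was -0.05, 0.26 and 0.32 in the order of these comparisons, beside -0.01, 0.02 and 0.03 over all genes tested. The comparisons share libraries and are not independent of each other.

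Transcript length and scaling both bore on these figures. In CD115-Ly6C- against CD115+Ly6C+ the median log2 fold change was -0.34 in the shortest 25% of genes (up to 1773 bases) and 0.31 in the longest 25% (4180 bases and more). With each library's length trend removed, 2 members were called higher and 3 lower there, against 5 and 2 with the trend left in. Over all 12127 genes 1879 were then higher and 1971 lower, against 2435 and 2333 with the trend left in. Scaling by library totals in place of TMM (the trimmed mean of M-values, edgeR's default), an alternative chosen after the data were seen, moved the median of all genes to 0.22, against 0.03 with TMM. The higher share of all calls was then 69.8%, against 51.1% with TMM. In CD115-Ly6C- against CD115+Ly6C- that share was 74.3% with library totals and 55.4% with TMM, with a median of 0.14 over all genes. In CD115+Ly6C+ against CD115+Ly6C- it was 38.4% and 54.8%, with a median of -0.08. Deposited FPKM are not TMM-scaled, so their ratios can differ from the fold changes of the fit.

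**Figure D1:**
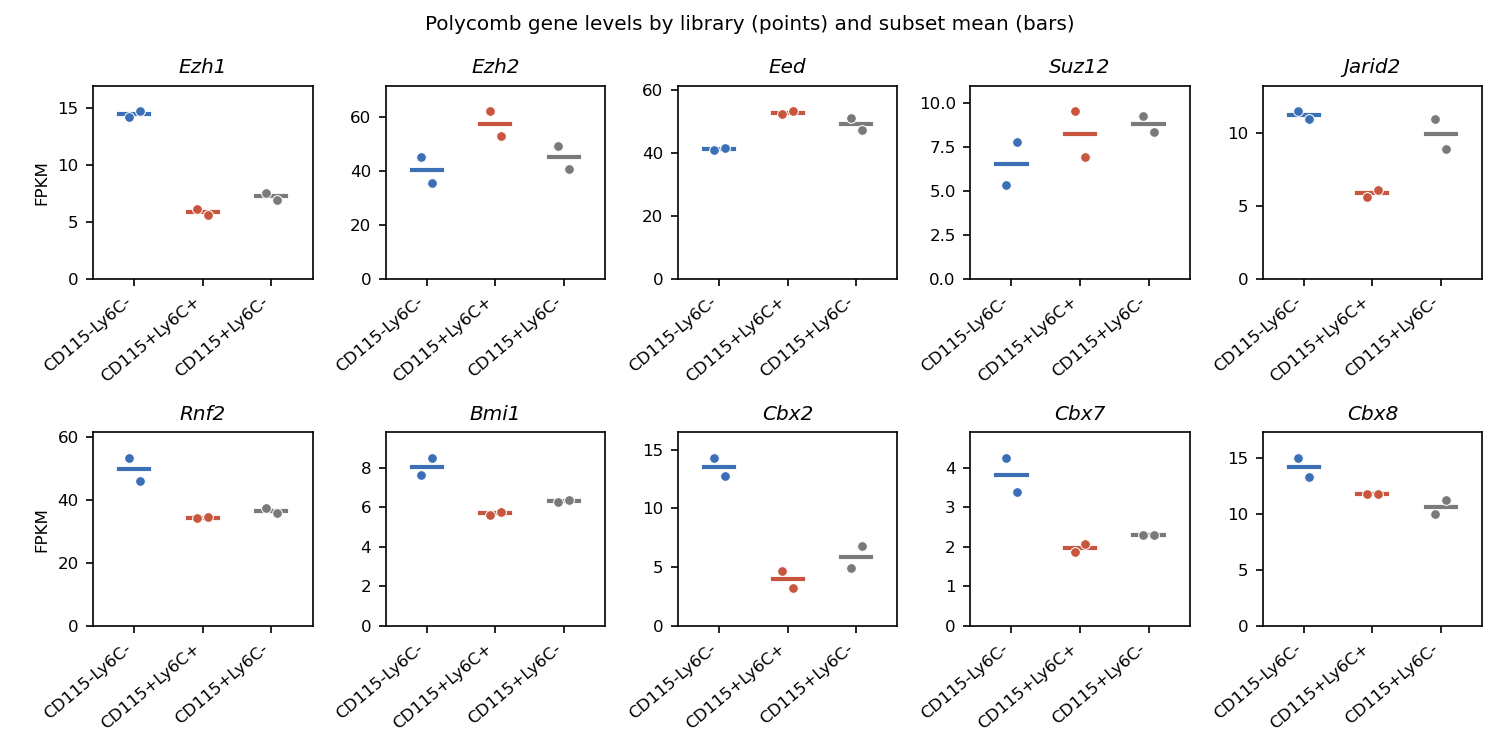
FPKM (fragment counts scaled for transcript length and library size; y axis from 0, set per gene) of the 10 Polycomb genes in each library (points) with the subset mean (bars), for CD115-Ly6C-, CD115+Ly6C+ and CD115+Ly6C- from left to right. Ezh1, Cbx2 and Cbx7 lie apart and above in CD115-Ly6C-, Jarid2 lies lowest in CD115+Ly6C+, and Ezh2 lies highest in CD115+Ly6C+.

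The alternative catalytic subunits of PRC2 differed in opposite directions between CD115-Ly6C- cells and CD115+Ly6C+ cells. Ezh1, the H3K27 methyltransferase that dividing cells use less, was at 14.2 and 14.7 FPKM in CD115-Ly6C-, 6.17 and 5.59 FPKM in CD115+Ly6C+ and 7.58 and 6.94 FPKM in CD115+Ly6C-. Both CD115-Ly6C- libraries were above all 4 others. On the TMM-scaled CPM scale the means were 54.3 ± 2.46 CPM in CD115-Ly6C- cells, 25.3 ± 1.34 CPM in CD115+Ly6C+ cells and 29.7 ± 2.15 CPM in CD115+Ly6C- cells (SD, n = 2 each). Ezh1 was 2.15-fold higher in CD115-Ly6C- cells than in CD115+Ly6C+ cells (log2 fold change 1.10, SE 0.14, edgeR adjusted p = 0.00049) and 1.83-fold higher than in CD115+Ly6C- cells (0.87, SE 0.13, edgeR adjusted p = 0.00504). Between CD115+Ly6C+ cells and CD115+Ly6C- cells its log2 fold change was -0.24, with a 95% interval of -0.55 to 0.08 (edgeR adjusted p = 0.297).

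Ezh2, the catalytic subunit that prevails in proliferating progenitors, showed 45.0 and 35.5 FPKM in CD115-Ly6C-, 62.1 and 52.8 FPKM in CD115+Ly6C+ and 49.4 and 40.8 FPKM in CD115+Ly6C-. The CD115+Ly6C+ libraries were the highest, while those of the other two subsets overlapped. Ezh2 was 1.63-fold lower in CD115-Ly6C- cells than in CD115+Ly6C+ cells (log2 fold change -0.70, SE 0.15, edgeR adjusted p = 0.00648). Its difference from CD115+Ly6C- was -0.28 for CD115-Ly6C- cells (edgeR adjusted p = 0.223) and 0.42 for CD115+Ly6C+ cells (edgeR adjusted p = 0.107). In every alternative run, leave-outs and library totals included, the calls of Ezh1 and Ezh2 stayed on the same side of the threshold.

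Ezh1 lies at chr11:101191115-101226463 on the minus strand, and Ezh2 at chr6:47530274-47595270, also on the minus strand (RefSeq, GRCm38.p6, the build that mm10 names). Exons of Ezh2 share 174 bases with Gm26625, an annotated long non-coding RNA on the opposite strand, and without a stated strand in the counting such reads cannot be told apart. The sequences upstream of these genes, and of Eed below, are shown because they belong to the core PRC2 subunits (the catalytic pair and Eed) that passed the test between CD115-Ly6C- cells and CD115+Ly6C+ cells, Ezh1 as higher and Ezh2 and Eed as lower. Jarid2, an accessory subunit that also passed as higher, is not shown. Each stretch runs from 230 bases before the annotated start through the first 20 bases of the transcript, 5′ to 3′ on the gene's own strand (RefSeq, GRCm38.p6). They are chr11:101226444-101226693 for Ezh1, chr6:47595011-47595260 for Ezh2 and chr7:89980957-89981206 for Eed, each on the minus strand. Capitals mark matches to the E2F words TTTCCCGC, TTTCGCGC, TTTGCCGC and TTTGGCGC and to the CCAAT box, on either strand.
Ezh1: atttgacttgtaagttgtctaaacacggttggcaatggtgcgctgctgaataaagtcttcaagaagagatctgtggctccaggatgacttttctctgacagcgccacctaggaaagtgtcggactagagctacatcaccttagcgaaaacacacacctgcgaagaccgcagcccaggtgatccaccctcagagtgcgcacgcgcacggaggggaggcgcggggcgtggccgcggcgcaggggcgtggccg
Ezh2: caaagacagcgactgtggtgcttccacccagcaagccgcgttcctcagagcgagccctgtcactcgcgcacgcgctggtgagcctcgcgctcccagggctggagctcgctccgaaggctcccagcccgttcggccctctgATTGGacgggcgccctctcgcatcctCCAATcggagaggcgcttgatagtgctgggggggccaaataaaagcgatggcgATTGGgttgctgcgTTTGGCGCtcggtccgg
Eed: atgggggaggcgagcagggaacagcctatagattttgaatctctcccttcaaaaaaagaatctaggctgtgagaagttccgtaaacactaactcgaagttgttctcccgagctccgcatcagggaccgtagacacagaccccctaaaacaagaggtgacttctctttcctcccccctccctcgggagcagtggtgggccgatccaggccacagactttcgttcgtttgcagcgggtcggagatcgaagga

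E2F factors act on cell cycle genes, and the CCAAT box is bound by NF-Y, a general activator. The first base of the transcript is counted as 1 and the base before it as -1. The Ezh2 stretch held 1 E2F match, from base 4, and CCAAT boxes from bases -90, -64 and -11. The Ezh1 stretch held none of either, and Eed had a single CCAAT box from base 26, past the end of the stretch shown. Among the 9 members with a promoter entry, which excludes Cbx2, Suz12 had the only other E2F match, from base -219, and it also had a CCAAT box from base -61. Over all 32851 promoter entries of the same window (250 bases before to 50 after the start), 2.26% held an E2F match and 37.4% a CCAAT box. Another 4 motifs were searched, namely Runx (TGTGGT and, as a variant of it, TGCGGT), PU.1 (AGGAAGT), the palindromic E-box CACGTG and the GC box, spelled GGGCGGG. They were found in 22.4%, 9.35%, 7.15% and 25.6% of all entries. Ezh1 had a Runx word from base -66, Ezh2 from bases -250 and -217 and Jarid2 from base -196. CCAAT boxes were also in the entries of Jarid2, Cbx7 and Cbx8, E-boxes in those of Bmi1 and Cbx8, and GC boxes in those of Suz12, Jarid2, Rnf2, Bmi1 and Cbx8. No member's entry held the PU.1 word. These 6 motifs were chosen after the values were seen, and a match describes letters, not binding.

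The balance of the catalytic subunits, read as Ezh1 FPKM divided by Ezh2 FPKM within a library, was 0.314 and 0.414 in CD115-Ly6C- libraries, 0.0994 and 0.106 in CD115+Ly6C+ libraries and 0.154 and 0.170 in CD115+Ly6C- libraries. The 3 subsets did not overlap, and Ezh2 was the more abundant transcript per length in every library. The mean ratio in CD115-Ly6C- was 3.52-fold that in CD115+Ly6C+ and 2.23-fold that in CD115+Ly6C- cells (geometric means, n = 2 each), and in CD115+Ly6C+ it was 0.635-fold that in CD115+Ly6C-. With 2 libraries against 2 the exact two-sided permutation test gave p = 0.333 for each of the 3 comparisons, the smallest it can give. The ratios were not corrected for the length trend. With that trend removed, the log2 fold change of CD115-Ly6C- against CD115+Ly6C+ was 0.87 for Ezh1 and -0.74 for Ezh2. With it left in, these were 1.10 and -0.70. Against CD115+Ly6C- cells the values were 0.76 and -0.31 with the trend removed, and 0.87 and -0.28 with it left in.

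**Figure D2:**
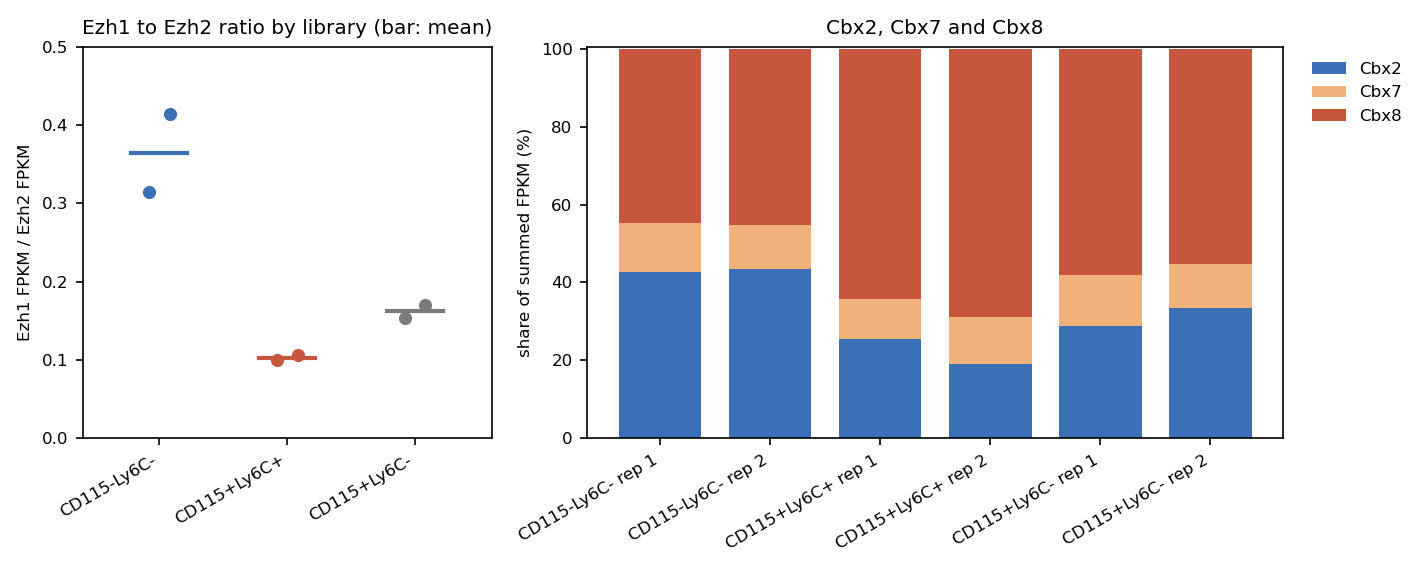
Left, the ratio of Ezh1 to Ezh2 FPKM in each library (points) with the subset mean (bars); right, the share in percent of Cbx2, Cbx7 and Cbx8 in their summed FPKM, 1 bar per library. The ratio is highest in CD115-Ly6C- (0.314 and 0.414), and the share of Cbx2 is highest there too (42.6% and 43.3%).

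Eed, the PRC2 subunit that reads H3K27 methylation and stimulates the enzyme, had 41.2 and 41.6 FPKM in CD115-Ly6C-, 52.4 and 53.4 FPKM in CD115+Ly6C+ and 51.2 and 47.4 FPKM in CD115+Ly6C-. Both CD115-Ly6C- libraries were below the other 4. Eed was 1.46-fold lower in CD115-Ly6C- cells than in CD115+Ly6C+ cells (log2 fold change -0.55, SE 0.11, edgeR adjusted p = 0.00486). Against CD115+Ly6C- its log2 fold change was -0.37, which just missed the threshold in edgeR (adjusted p = 0.0503) and passed it in DESeq2 (adjusted p = 0.024). Eed lies at chr7:89954654-89980976 on the minus strand, and 261 exon bases overlap E230029C05Rik on the other strand.

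Suz12, the scaffold subunit without which PRC2 is unstable, was far less abundant per length than Eed, at 5.35 and 7.79 FPKM in CD115-Ly6C-, 9.55 and 6.95 FPKM in CD115+Ly6C+ and 9.27 and 8.37 FPKM in CD115+Ly6C-. Its CD115-Ly6C- and CD115+Ly6C+ libraries overlapped on this scale, and its libraries spread more than those of Eed. No comparison passed for Suz12. The log2 fold change of CD115-Ly6C- was -0.52 against CD115+Ly6C+ cells (95% interval -1.02 to -0.02, edgeR adjusted p = 0.0899) and -0.55 against CD115+Ly6C- cells (edgeR adjusted p = 0.125). The first of these passed with the length trend removed (-0.77, edgeR adjusted p = 0.0264), with no filter on low counts (0.0376) and without CD115-Ly6C- replicate 2 (0.0267), and the second without CD115-Ly6C- replicate 2 (0.0486). The FPKM of Eed over that of Suz12 averaged 6.52 ± 1.67 in CD115-Ly6C- cells, 6.58 ± 1.55 in CD115+Ly6C+ cells and 5.60 ± 0.103 in CD115+Ly6C- cells (SD, n = 2 each). Suz12 lies at chr11:79993106-80034123 on the plus strand, and 178 exon bases overlap Gm26563 on the other strand.

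Jarid2, a Jumonji family protein without demethylase activity that joins PRC2 and helps bring it to target genes, was the only one of the 10 members to differ between CD115+Ly6C+ and both other subsets in the edgeR test. It was at 11.5 and 11.0 FPKM in CD115-Ly6C-, 5.66 and 6.13 FPKM in CD115+Ly6C+ and 11.0 and 8.96 FPKM in CD115+Ly6C-. Both CD115+Ly6C+ libraries were below the other 4, while CD115-Ly6C- cells and CD115+Ly6C- cells lay next to each other and overlapped in CPM. Jarid2 was 1.60-fold lower in CD115+Ly6C+ cells than in CD115+Ly6C- cells (log2 fold change -0.68, SE 0.15, edgeR adjusted p = 0.0267) and 1.68-fold higher in CD115-Ly6C- cells than in CD115+Ly6C+ cells (0.75, SE 0.15, edgeR adjusted p = 0.00452). Between CD115-Ly6C- cells and CD115+Ly6C- cells the log2 fold change was 0.07, with a 95% interval of -0.26 to 0.40 (edgeR adjusted p = 0.774). Jarid2 is the longest member, with RSEM lengths of 5727 to 5807 bases, and with the length trend removed neither call was kept (-0.48 with edgeR adjusted p = 0.106, and 0.42 with edgeR adjusted p = 0.064). The first call also did not survive leaving out CD115+Ly6C- replicate 1 (0.161 by edgeR), CD115+Ly6C+ replicate 1 (0.111) or CD115+Ly6C+ replicate 2 (0.0776). Jarid2 lies at chr13:44730774-44921643 on the plus strand.

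**Figure D3:**
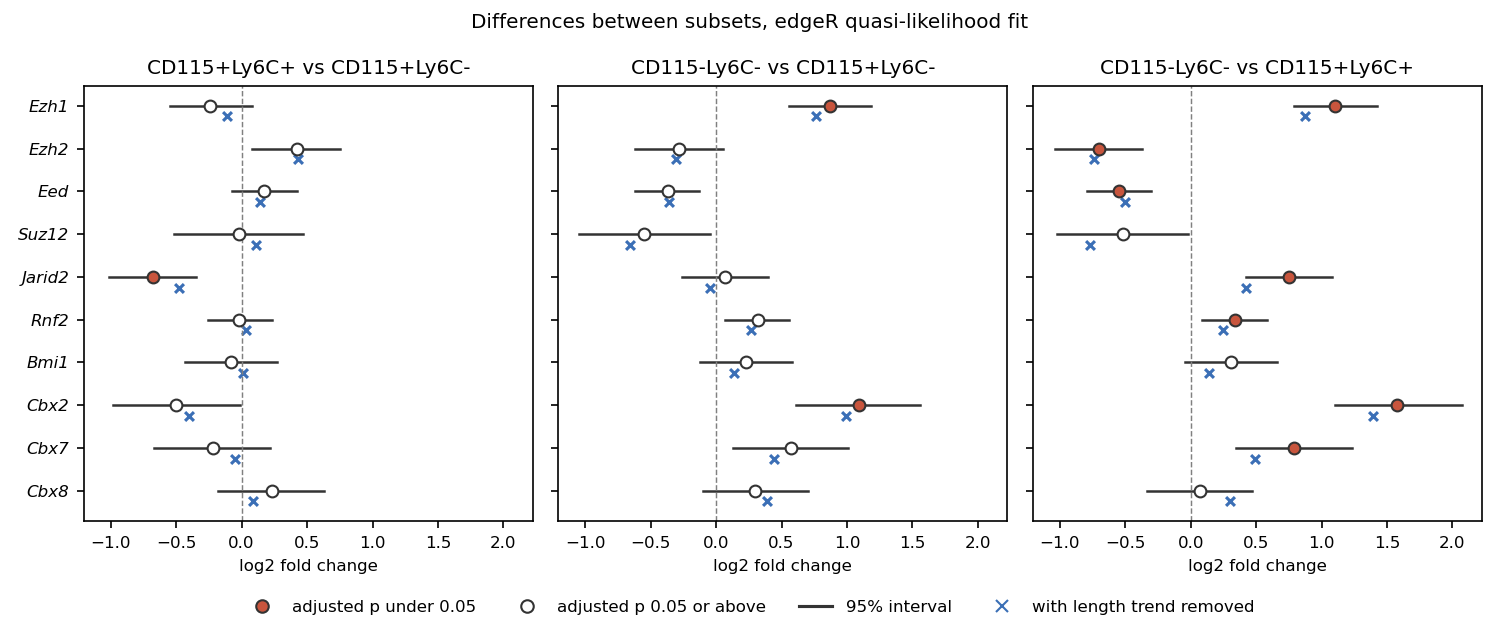
Log2 fold change (x axis) of the 10 members in the 3 comparisons, with 95% intervals from the edgeR fit; filled circles passed an adjusted p of 0.05, and crosses give the value with each library's length trend removed. Between CD115-Ly6C- and CD115+Ly6C+, 7 circles are filled, Cbx2 at 1.58 and Ezh1 at 1.10 on the higher side and Ezh2 at -0.70 on the lower side.

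Of PRC1, Rnf2 (RING1B), the main H2A ubiquitin ligase, was the most abundant member in CD115-Ly6C-, at 53.3 and 45.9 FPKM, with 34.3 and 34.4 FPKM in CD115+Ly6C+ and 37.3 and 35.8 FPKM in CD115+Ly6C-. Both CD115-Ly6C- libraries were above the other 4. Its difference was small on the TMM scale, 1.26-fold between CD115-Ly6C- cells and CD115+Ly6C+ cells (log2 fold change 0.34, SE 0.11, edgeR adjusted p = 0.0366). That call was lost when any 1 of the 6 libraries was left out (edgeR adjusted p from 0.0509 without CD115+Ly6C- replicate 2 to 0.236 without CD115-Ly6C- replicate 1) and with the length trend removed (0.117). Against CD115+Ly6C- the log2 fold change of CD115-Ly6C- was 0.32 (edgeR adjusted p = 0.0794), a difference called with library totals (0.0292). Between CD115+Ly6C+ cells and CD115+Ly6C- cells it was -0.02, with a 95% interval of -0.26 to 0.23. Rnf2 lies at chr1:151469398-151500991 on the minus strand and shares 158 exon bases with Trmt1l, a protein-coding gene on the other strand. Its FPKM was 7.57 ± 2.02 times that of Ring1, the alternative ligase, in CD115-Ly6C-, 5.59 ± 0.285 times in CD115+Ly6C+ and 8.31 ± 2.30 times in CD115+Ly6C- cells (SD, n = 2 each).

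Bmi1 (PCGF4), the RING finger partner that activates the ligase in canonical PRC1, was at 7.62 and 8.52 FPKM in CD115-Ly6C-, 5.61 and 5.79 FPKM in CD115+Ly6C+ and 6.30 and 6.39 FPKM in CD115+Ly6C-. The subsets did not overlap on this scale. On the TMM scale no comparison passed, the largest log2 fold change being 0.31 in CD115-Ly6C- against CD115+Ly6C+ cells (95% interval -0.04 to 0.66, edgeR adjusted p = 0.142), which passed with library totals (0.028). Bmi1, at chr2:18677018-18686629 on the plus strand, was not the main PCGF transcript. It held 11.8 ± 2.39% of the FPKM of the 6 PCGF genes in CD115-Ly6C-, 9.93 ± 0.803% in CD115+Ly6C+ cells and 11.1 ± 0.0758% in CD115+Ly6C- cells (SD, n = 2 each). Pcgf5, of variant PRC1, held 33.4 ± 5.25% in CD115-Ly6C- cells, 41.7 ± 2.63% in CD115+Ly6C+ cells and 33.5 ± 3.19% in CD115+Ly6C- cells.

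The Cbx genes encode the chromodomain subunits that let canonical PRC1 bind H3K27 methylation. Cbx2, which also compacts chromatin, had 14.3 and 12.7 FPKM in CD115-Ly6C-, 4.65 and 3.25 FPKM in CD115+Ly6C+ and 4.93 and 6.78 FPKM in CD115+Ly6C-. Both CD115-Ly6C- libraries were far above the other 4, and the CD115+ subsets did not overlap but lay close. Cbx2 was 2.99-fold higher in CD115-Ly6C- cells than in CD115+Ly6C+ cells (log2 fold change 1.58, SE 0.21, edgeR adjusted p = 0.00073). No other member differed by as much. It was 2.12-fold higher than in CD115+Ly6C- cells (1.09, SE 0.21, edgeR adjusted p = 0.0123), a call lost without CD115+Ly6C- replicate 1 (0.0949) or CD115-Ly6C- replicate 1 (0.0644). Between CD115+Ly6C+ cells and CD115+Ly6C- cells the log2 fold change was -0.50 (95% interval -0.98 to -0.01, edgeR adjusted p = 0.17).

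Cbx7, the Cbx protein of stem cells in mouse embryonic and blood lineages, was the least abundant member in every subset, at 4.26 and 3.38 FPKM in CD115-Ly6C-, 1.86 and 2.08 FPKM in CD115+Ly6C+ and 2.29 and 2.30 FPKM in CD115+Ly6C-. The subsets did not overlap. Cbx7 was 1.73-fold higher in CD115-Ly6C- cells than in CD115+Ly6C+ cells (log2 fold change 0.79, SE 0.19, edgeR adjusted p = 0.0126). That call was lost with the length trend removed (0.49, edgeR adjusted p = 0.0829) and without CD115+Ly6C+ replicate 1 (0.0583) or CD115-Ly6C- replicate 1 (0.081). Against CD115+Ly6C- the log2 fold change was 0.57 (edgeR adjusted p = 0.0784), a difference called with library totals (0.0453). Its expected counts were not whole, and 100 exon bases overlap Apobec3 on the other strand. Cbx7 lies at chr15:79915804-79971143 on the minus strand.

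Cbx8, a reader with weaker affinity for the mark, lies beside Cbx2 on chromosome 11, at chr11:119036303-119040913 on the minus strand, while Cbx2 lies at chr11:119023019-119031275 on the plus strand. It had 15.02 and 13.29 FPKM in CD115-Ly6C-, 11.8 and 11.8 FPKM in CD115+Ly6C+ and 9.98 and 11.2 FPKM in CD115+Ly6C-. On the TMM scale the CD115-Ly6C- and CD115+Ly6C+ libraries overlapped, with a log2 fold change of 0.07 and a 95% interval of -0.33 to 0.47 (edgeR adjusted p = 0.779). Its other log2 fold changes were 0.30 for CD115-Ly6C- and 0.23 for CD115+Ly6C+, each against CD115+Ly6C- cells (edgeR adjusted p = 0.283 and 0.439). The Cbx2 interval in CD115-Ly6C- against CD115+Ly6C+, 1.10 to 2.07, lay wholly above that of its neighbour.

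The makeup of the 3 Cbx members shifted with these values. Of their summed FPKM, Cbx2 took 42.9 ± 0.479% in CD115-Ly6C- cells, 22.2 ± 4.60% in CD115+Ly6C+ cells and 31.0 ± 3.36% in CD115+Ly6C- cells (SD, n = 2 each). Cbx8 took 45.0 ± 0.356% in CD115-Ly6C- cells, 66.6 ± 3.22% in CD115+Ly6C+ cells and 56.6 ± 1.96% in CD115+Ly6C- cells, so Cbx2 and Cbx8 were nearly equal in CD115-Ly6C- while Cbx8 led in both CD115+ subsets. The sum itself was 33.6 and 29.4 FPKM in CD115-Ly6C-, 18.3 and 17.1 FPKM in CD115+Ly6C+ and 17.2 and 20.3 FPKM in CD115+Ly6C-. The share of Cbx7 was 12.1 ± 0.836% in CD115-Ly6C- cells, 11.2 ± 1.38% in CD115+Ly6C+ cells and 12.3 ± 1.40% in CD115+Ly6C- cells, values that overlapped between the subsets.

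Ranked by FPKM, Rnf2 led in CD115-Ly6C-, above Eed and Ezh2, which overlapped. Ezh1, Cbx8 and Cbx2 followed and overlapped as neighbours, then Jarid2, then Bmi1 and Suz12, which overlapped, and Cbx7 was last. In CD115+Ly6C+ Ezh2 and Eed led and overlapped, followed by Rnf2, Cbx8 and Suz12, then by Jarid2, Ezh1 and Bmi1, which overlapped as neighbours, then by Cbx2 and Cbx7. In CD115+Ly6C- Eed and Ezh2 led and overlapped, followed by Rnf2, then by Cbx8, Jarid2 and Suz12 as overlapping neighbours, Ezh1, then Bmi1 and Cbx2, which overlapped, and Cbx7. Cbx2 and Ezh1 thus stood level with Cbx8 in CD115-Ly6C- and below it, without overlap, in both CD115+ subsets.

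The rest of the Polycomb system was read through 42 further genes in 4 lists, of which 40 were tested. In CD115-Ly6C- against CD115+Ly6C+, 14 of them passed as higher and 2 as lower, beside 20.1% and 19.2% of all genes. The median log2 fold change was 0.25 beside 0.03 over all genes. With the length trend removed 6 were higher and 2 lower, beside 1879 and 1971 of all 12127 genes, and the median was 0.04. Against CD115+Ly6C- cells, 5 were higher and 1 lower in CD115-Ly6C- cells (median 0.06), beside 8.43% and 6.78% of all genes. In CD115+Ly6C+ against CD115+Ly6C-, 0 were higher and 1 was lower (median -0.14), beside 5.26% and 4.34% of all genes.

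Of 8 other PRC2 genes tested, 1 was higher and 1 lower in each comparison of CD115-Ly6C-. The shares over all genes were 20.1% and 19.2% against CD115+Ly6C+ cells and 8.43% and 6.78% against CD115+Ly6C- cells. Phf1, a Polycomb-like protein that tethers PRC2 to chromatin, had 3.22 and 2.50 FPKM in CD115-Ly6C-, 0.70 and 0.61 FPKM in CD115+Ly6C+ and 0.43 and 0.95 FPKM in CD115+Ly6C-. Its log2 fold change was 1.92 in both comparisons (SE 0.45, edgeR adjusted p = 0.0103 against CD115+Ly6C+ and 0.0252 against CD115+Ly6C-). The first was lost without CD115+Ly6C+ replicate 2 (0.0583) or CD115-Ly6C- replicate 1 (0.0606), and the second without CD115+Ly6C- replicate 1 (0.127), CD115-Ly6C- replicate 1 (0.157) or CD115-Ly6C- replicate 2 (0.0512). The histone chaperones that PRC2 shares with other complexes were lower by little, Rbbp4 against CD115+Ly6C+ cells (-0.32, SE 0.10, edgeR adjusted p = 0.0353) and Rbbp7 against CD115+Ly6C- cells (-0.41, SE 0.11, edgeR adjusted p = 0.0382). The Rbbp4 call was lost without any 1 of the 4 libraries compared (0.0841 to 0.225), with the replicate block (0.0546) and with library totals (0.341), and the Rbbp7 call without any 1 of the 6 libraries (0.0516 to 0.239), with the block (0.0605) and with library totals (0.0889).

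PRC1 was represented by 22 other genes. In CD115-Ly6C- cells 8 passed as higher and 1 as lower than in CD115+Ly6C+ cells, beside 20.1% and 19.2% of all genes. With the length trend removed 3 were higher and 1 lower. Mga, the scaffold of the variant PRC1.6 complex, was at 5.52 and 4.23 FPKM in CD115-Ly6C-, 2.06 and 1.90 FPKM in CD115+Ly6C+ and 3.19 and 3.0 FPKM in CD115+Ly6C-. The 3 subsets did not overlap. Mga was 1.10 higher on the log2 scale in CD115-Ly6C- cells than in CD115+Ly6C+ cells (SE 0.15, edgeR adjusted p = 0.000724). It also passed in CD115-Ly6C- against CD115+Ly6C- cells (0.53, edgeR adjusted p = 0.0412) and in CD115+Ly6C+ against CD115+Ly6C- cells (-0.57, edgeR adjusted p = 0.0467). These last calls were lost with the length trend removed (0.0863 and 0.31); the -0.57 call was lost without any 1 of its 4 libraries (0.0951 to 0.216), and the 0.53 call without any 1 library other than CD115-Ly6C- replicate 2 (0.0525 to 0.3).

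Pcgf6, the PCGF protein of the same PRC1.6 complex, had 19.9 and 17.3 FPKM in CD115-Ly6C-, 9.34 and 9.84 FPKM in CD115+Ly6C+ and 13.6 and 13.8 FPKM in CD115+Ly6C-. Pcgf6 passed as higher in CD115-Ly6C- cells than in CD115+Ly6C+ cells (log2 fold change 0.76, SE 0.14, edgeR adjusted p = 0.004), and no alternative changed that call; it was named after its values were seen. E2f6, the repressive E2F factor of PRC1.6, was lower in CD115-Ly6C- cells (3.79 ± 0.226 FPKM) than in CD115+Ly6C+ cells (7.09 ± 0.283 FPKM, n = 2 each), with a log2 fold change of -1.10 (SE 0.31, edgeR adjusted p = 0.0215), lost without any 1 of those 4 libraries (0.0635 to 0.0752). In that comparison Mga and Pcgf6 on one side and E2f6 on the other thus differed in direction. These are single genes of PRC1.6, and nothing follows for the complex as a whole. Scml4, related to the fly Polycomb protein Scm, was at 119 and 182 counts in CD115-Ly6C-, 8 and 0 counts in CD115+Ly6C+ and 4 and 2 counts in CD115+Ly6C-. It passed in both comparisons of CD115-Ly6C- cells (edgeR adjusted p = 0.00197 against CD115+Ly6C+ and 0.00496 against CD115+Ly6C-), and its fitted fold depends on the prior count. Scml4 cleared the filter on low counts only through its CD115-Ly6C- libraries, so the direction of these calls was fixed in advance. The counts of other Polycomb genes called higher in CD115-Ly6C- include it.

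**Figure D4:**
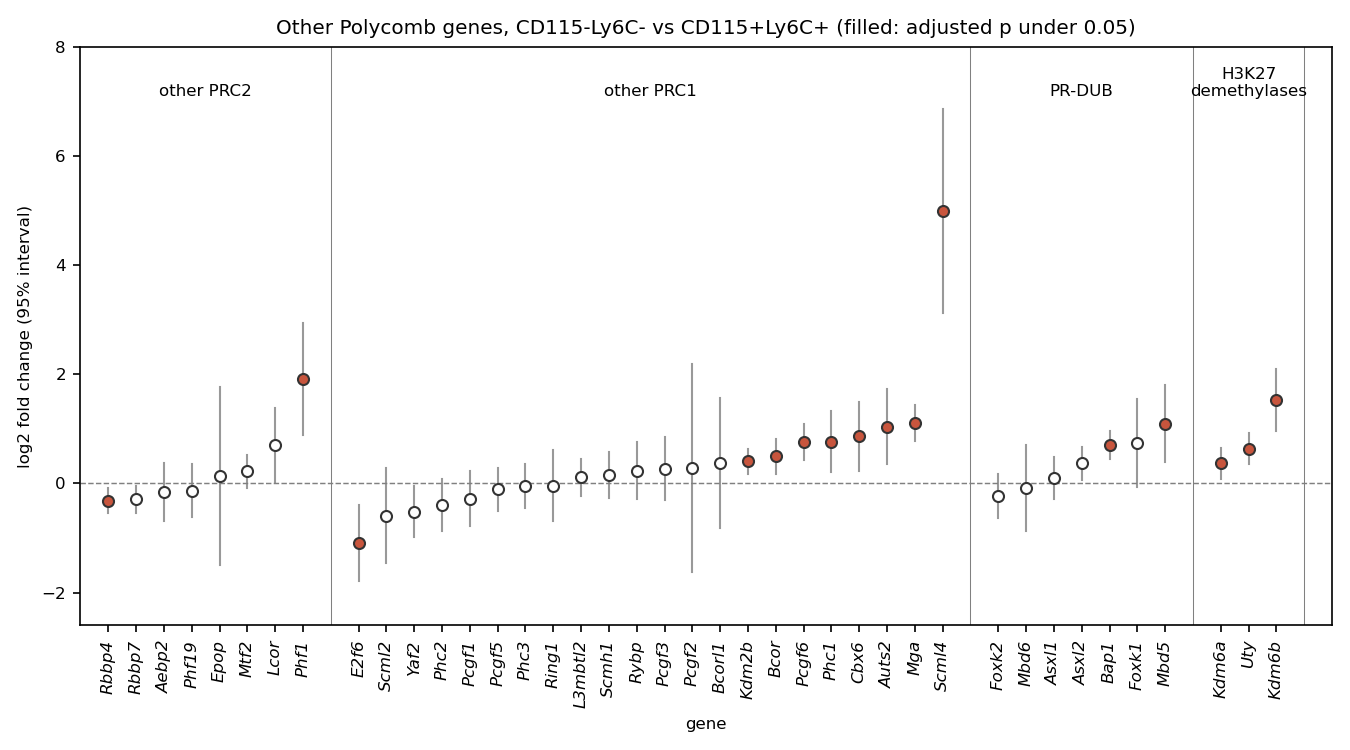
Log2 fold change (y axis) with 95% interval of the 40 other Polycomb genes tested, CD115-Ly6C- against CD115+Ly6C+, ordered by value within each list; filled circles passed an adjusted p of 0.05. Of the 40, 14 lie above 0 and filled and 2 (Rbbp4 and E2f6) below 0 and filled.

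Of 7 PR-DUB genes tested, 2 passed as higher (Bap1 and Mbd5) and 0 as lower in CD115-Ly6C- cells than in CD115+Ly6C+ cells, beside 20.1% of all genes higher, and 1 was higher with the length trend removed. Against CD115+Ly6C- cells 1 (Mbd5) was higher, beside 8.43% of all genes. Bap1, the catalytic subunit of PR-DUB, which removes ubiquitin from H2A, had 54.9 and 48.6 FPKM in CD115-Ly6C-, 28.49 and 27.04 FPKM in CD115+Ly6C+ and 35.5 and 41.3 FPKM in CD115+Ly6C-. The 3 subsets did not overlap, and the log2 fold change between CD115-Ly6C- cells and CD115+Ly6C+ cells was 0.71 (SE 0.11, edgeR adjusted p = 0.00184). Mbd5, a methyl-CpG-binding domain protein that binds PR-DUB, was at 3.10 ± 0.686 FPKM in CD115-Ly6C- and 1.10 ± 0.368 FPKM in CD115+Ly6C- cells (SD, n = 2 each), with a log2 fold change of 1.32 (edgeR adjusted p = 0.0265), lost without replicate 1 of CD115+Ly6C- cells (0.159) or of CD115-Ly6C- cells (0.154). Its call against CD115+Ly6C+ cells (1.09, edgeR adjusted p = 0.0227) was lost with the length trend removed (0.0723) and without CD115+Ly6C+ replicate 2 (0.127) or CD115-Ly6C- replicate 1 (0.118).

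Kdm6b, an H3K27 demethylase, was at 1.87 and 1.95 FPKM in CD115-Ly6C-, 0.63 and 0.55 FPKM in CD115+Ly6C+ and 0.67 and 0.71 FPKM in CD115+Ly6C-. Both CD115-Ly6C- libraries were above the other 4. Its log2 fold change was 1.53 against CD115+Ly6C+ cells (SE 0.25, edgeR adjusted p = 0.0019) and 1.38 against CD115+Ly6C- cells (SE 0.25, edgeR adjusted p = 0.00939), the second lost without CD115+Ly6C- replicate 1 (0.0624). Against CD115+Ly6C+ cells, all 3 genes listed under H3K27 demethylases (Kdm6a, Kdm6b and Uty) passed as higher in CD115-Ly6C- cells. The share of all genes higher was 20.1% there. The grouping is by list only, and the enzyme activity of the 3 products was not tested. With the length trend removed Kdm6b alone passed. The Kdm6a call (log2 fold change 0.37, edgeR adjusted p = 0.0484) was lost in every alternative run other than library totals (edgeR or DESeq2 adjusted p from 0.0586 with median-ratio scaling to 0.834 with the length trend removed).

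Known Polycomb targets were read through 42 Hox and cell cycle inhibitor genes. Of these 19 were listed in the tables, the others were not analysed here, and 4 passed the filter. Hoxa9, a homeobox factor of blood progenitors, had 25.5 and 27.2 FPKM in CD115-Ly6C-, 6.90 and 7.40 FPKM in CD115+Ly6C+ and 17.0 and 15.3 FPKM in CD115+Ly6C-. The subsets did not overlap, and all 3 comparisons passed. Hoxa9 was 1.69 higher on the log2 scale in CD115-Ly6C- cells than in CD115+Ly6C+ cells (SE 0.14, edgeR adjusted p = 6.4e-05) and 1.10 lower in CD115+Ly6C+ cells than in CD115+Ly6C- cells (log2 fold change -1.10, SE 0.14, edgeR adjusted p = 0.00286). A log2 fold change of 0.59 between CD115-Ly6C- cells and CD115+Ly6C- cells (edgeR adjusted p = 0.0212) was lost without any 1 of those 4 libraries (0.0754 to 0.101).

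Hoxa3 had 3.19 and 1.85 FPKM in CD115-Ly6C-, 0.30 and 0.40 FPKM in CD115+Ly6C+ and 0.88 and 0.82 FPKM in CD115+Ly6C-. Its log2 fold change was 2.46 against CD115+Ly6C+ cells (edgeR adjusted p = 0.00195) and 1.52 against CD115+Ly6C- cells (edgeR adjusted p = 0.0315), the second lost without CD115-Ly6C- replicate 1 (0.238) or any 1 of the CD115+Ly6C- libraries (0.118 each). Hoxa10 had 57 and 45 counts in CD115-Ly6C-, 3 and 2 counts in CD115+Ly6C+ and 5 and 3 counts in CD115+Ly6C-. It cleared the filter on low counts only through its CD115-Ly6C- libraries, so the direction of its calls was fixed in advance. It passed against CD115+Ly6C+ cells (edgeR adjusted p = 0.00245) and against CD115+Ly6C- cells (0.0109), the second lost without either CD115+Ly6C- library (0.0709 and 0.0629) or CD115-Ly6C- replicate 1 (0.109). Hoxa7, their neighbour in the cluster, was at 25.99 and 27.88 FPKM in CD115-Ly6C-, 16.4 and 18.1 FPKM in CD115+Ly6C+ and 30.1 and 24.1 FPKM in CD115+Ly6C-. It passed in none of the comparisons, and passed as higher in CD115-Ly6C- cells than in CD115+Ly6C+ cells with the length trend removed (edgeR adjusted p = 0.0118) or with library totals (0.017). With the trend removed it also passed in CD115+Ly6C+ against CD115+Ly6C- cells (edgeR adjusted p = 0.046).

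Because Ezh2 is known as a gene of dividing cells, 28 proliferation genes were set beside it. Their summed level was 8274 to 9099 CPM in CD115-Ly6C-, 11960 to 12310 CPM in CD115+Ly6C+ and 11920 to 12490 CPM in CD115+Ly6C-. In CD115-Ly6C- against CD115+Ly6C+, 18 were lower and 3 higher, beside 19.2% and 20.1% of all genes. The median log2 fold change of the 28 was -0.86, beside -0.70 for Ezh2 and -0.55 for Eed. The lower ones were led by the mitotic genes Birc5 (-1.79), Cdk1 (-1.42), Aurkb (-1.34) and Ccna2 (-1.40), with edgeR adjusted p from 4e-05 to 0.000107. The 3 higher were Mcm2, Uhrf1 and Mcm6 of DNA replication (0.30 to 0.38), and none of them was called with the length trend removed or without CD115-Ly6C- replicate 1 (edgeR adjusted p from 0.0772 to 0.112). Against CD115+Ly6C-, 17 were lower in CD115-Ly6C- and 0 higher, beside 6.78% and 8.43% of all genes. The 17 were led by Birc5, Aurkb, Cdk1 and Aurka (-1.16 to -0.89), and the median of the 28 was -0.58, beside -0.28 for Ezh2. In CD115+Ly6C+ against CD115+Ly6C-, 5 were higher (led by Birc5, Cdk1, Tyms and E2f2) and 2 lower (Mcm4 and Mcm2), beside 5.26% and 4.34% of all genes. The median was 0.14, and all 7 calls were lost when CD115+Ly6C- replicate 1 was left out. Ezh2 itself differed by 0.42 on the log2 scale in that comparison (edgeR adjusted p = 0.107), beside the median of 0.14. The part of proliferation in the Ezh2 and Ezh1 differences was not tested.

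Genes with the pattern most like Ezh1 and Ezh2 were sought by the Euclidean distance between log2 CPM, centred per gene, over the 6 libraries, among 7374 genes with a mean of at least 5 FPKM. The nearest to Ezh1 were Dtnbp1 (distance 0.121), Uba7 (0.193), Afap1l1 (0.232), Hilpda (0.242) and Dync2li1 (0.254). Dtnbp1 was at 43.1 and 43.5 CPM in CD115-Ly6C-, 20.6 and 18.4 CPM in CD115+Ly6C+ and 23.2 and 21.1 CPM in CD115+Ly6C-. The nearest to Ezh2 were the RNA-binding protein gene Hnrnpu (0.0552), Ckap4 (0.123), the splicing factor gene Srsf1 (0.161), Grk6 (0.195) and the histone gene H4c17 (0.196). Hnrnpu was at 158.4 and 129.1 CPM in CD115-Ly6C-, 253.6 and 211.7 CPM in CD115+Ly6C+ and 189.7 and 158.5 CPM in CD115+Ly6C-.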

How the data were processed

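Flow-sorted CDP subsets were profiled by RNA sequencing of polyadenylated RNA, with 3 subsets of 2 libraries each. Per the submitters' processing notes, Bowtie2 and RSEM were used for alignment and quantification on the mm10 build. No source used here gives their versions, settings or the strandedness of the kit. The authors deposited, per the file headers, an expected count and an FPKM for each gene and library; 12.6% of the expected counts were not whole and were rounded for testing. A gene left out of a library's table was taken as 0 there. Rows named only by submitters' numbers held 3.56% to 4.18% of the counts. They stayed in the library totals and went through the filter and the fit with all other rows. Library totals were 17961541 to 19450329, and with no molecular identifiers stated, counts cannot be read as independent molecules. Replicate libraries differed by far more than counting noise (chi-square per degree of freedom 18.8 to 21.4).

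Counts were filtered (filterByExpr, minimum count 10 and total 15), scaled by TMM (factors 0.930 to 1.09) and fitted over all 6 libraries with 1 coefficient per subset in edgeR 4.0.16 (glmQLFit, glmQLFTest) under R 4.3.3. Adjusted p-values are Benjamini-Hochberg over 12127 genes with a threshold of 0.05, and the biological coefficient of variation was 15.2%. The script was tested on simulated data. Alternatives were DESeq2 1.42.0, median-ratio scaling, no filter, each library's length trend removed by a lowess curve (span 0.3), the 2 subsets compared alone, the replicate number as a block and leaving out each library; library totals were added after the data were seen. Members and lists were chosen with earlier results of these data known. Beside the members, named genes were up to 4 per list and direction with the smallest adjusted p, exceptions being named as such, and the 5 genes nearest to Ezh1 and to Ezh2. Gene positions and promoters are from RefSeq, GRCm38.p6, matched for 15332 genes by Entrez ID, and exon overlaps are from GENCODE annotation of the same build. Overlap of exons was not corrected for. Some genes of the lists are not reported here and are in none of the list counts, sums or medians.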

Additional observations from a re-analysis of the deposited data

How the results depend on the processing

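Of the log2 fold changes of the 10 members over the alternatives, 354 kept direction and side of the threshold, 19 lost a call, 8 gained one and 9 changed sign, none of these 9 with a call. In CD115+Ly6C+ against CD115+Ly6C-, Suz12 turned to 0.112 with the length trend removed, 0.058 without CD115+Ly6C- replicate 1 and 0.171 without CD115+Ly6C+ replicate 2 (range with a library left out -0.252 to 0.171). Rnf2 turned to 0.026 with the trend removed, 0.02 without CD115+Ly6C- replicate 1 and 0.001 without CD115+Ly6C+ replicate 1 (range -0.06 to 0.02), and Bmi1 to 0.006 with the trend removed. Jarid2 in CD115-Ly6C- against CD115+Ly6C- turned to -0.052 with the trend removed and -0.086 without CD115+Ly6C- replicate 2 (range -0.086 to 0.233). The cause was not tested. Of 10 members, 1 was called in CD115+Ly6C+ against CD115+Ly6C-, 0 with the length trend removed and 0 to 1 with a library left out. In CD115-Ly6C- against CD115+Ly6C- it was 2, 4 with library totals and 1 to 3 with a library left out. In CD115-Ly6C- against CD115+Ly6C+ it was 7, and 5 to 8 over all alternatives. Of the other Polycomb genes in the same order of comparisons, 1, 6 and 16 were called. The first became 4 with DESeq2, 4 with no filter, 5 with library totals and 0 with the trend removed, the third 8 with the trend removed, and with a library left out they ranged from 0 to 1, 1 to 5 and 6 to 15. Over all genes 1164, 1844 and 4768 were called, the first 1812 with DESeq2, 1810 with no filter and 711 with the trend removed; with a library left out they ranged from 220 to 1139, 485 to 1744 and 2983 to 4632. The correlations of replicate differences between subsets were -0.004, -0.01 and 0.152. With 1 difference per subset they cannot tell whether the replicate numbers pair the libraries. With the replicate block, 1, 2 and 6 members and 1, 5 and 13 other Polycomb genes were called, Rnf2 being the member no longer called (edgeR adjusted p = 0.0504). The Ezh1 to Ezh2 ratio kept its direction in all 21 runs, counted over the 3 comparisons together. Its subsets did not overlap, so leaving out a library could not reverse a difference, and these runs are no test of it. A left-out library leaves 1 in its subset, which is assumed to vary like the others. Low counts limit Scml4, Hoxa10 and Phf1.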
